A study of Mus musculus with 12 samples.

Results

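Reactive astrocyte genes are 36 genes that astrocytes are known to induce after injury, inflammation or infection, and they were followed here through 12 RNA-seq libraries of astrocyte-enriched cultures. Members were taken by gene symbol from a list of 17 pan-reactive genes, which respond to many insults, 8 inflammation-type genes and 11 injury-type genes. Interferon-response and MHC genes were left out of the list. The 36 genes were found among the 55573 in the count table, and 35 of them had enough counts to be tested among 16761 genes. The exception was Clcf1, a cytokine of the interleukin-6 family, with 3 counts in all 12 libraries together.

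The cultures came from forebrains of newborn C57BL6/J pups of postnatal day 0 to 2, and were shaken and replated at day 7 in vitro to enrich astrocytes. They carried 1 of 2 lentiviruses for 5 days and then received vasoactive intestinal peptide (VIP), a neuropeptide that raises cyclic AMP, or saline (PBS). The 4 groups, with 3 libraries each, were ACREB virus with VIP, ACREB virus with PBS, control virus with VIP and control virus with PBS. ACREB is a dominant-negative inhibitor of the cyclic AMP-responsive transcription factor CREB, and the control virus, pCIG3, expresses GFP from a CMV promoter. Expression of ACREB and GFP was not analysed here. The VIP dose was 0.5 µM, its exposure lasted 30 min, and cells recovered for 90 min before harvest, as did cells with PBS. All groups were transduced, and there was no culture without virus. The study asked how far transcription after VIP depends on CREB. The medium contained horse serum, and the labels do not say whether libraries 1 to 3 come from separate cultures or pups. The p-values therefore reflect no more than the variation among these libraries, possibly technical.

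Reactive astrocytes raise intermediate filament proteins, secreted acute-phase proteins, complement factors and matrix proteins. A main route to these genes is the transcription factor STAT3, which is phosphorylated after cytokines of the interleukin-6 family bind receptors that share the subunit gp130, and which is restrained by the inhibitor Socs3. Some injury-type genes, such as Ptgs2, are also known targets of cyclic AMP and CREB in many cell types.

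Promoter sequences were compared because CREB binds the cyclic AMP response element TGACGTCA or its part TGACG, and STAT3 binds sites of the form TTCNNNGAA. RefSeq windows of 300 bases (build GRCm38.p6), 250 before and 50 after the annotated start, were matched for 30 members and not for Serping1, Cd109, Cd14, S100a10, C4b and Clcf1, whose promoters were not analysed here. The full element TGACGTCA was found on either strand in 0 of the 30 members, against 2.03% of the 27025 genes with a window. The 5-base TGACG, which also lies within the full element, was found in 7 of 30 members (23.3%), against 23.0% of all genes: B3gnt5, Fbln5, Hspb1, Ptgs2, Sphk1, Srgn and Timp1. TTCNNNGAA was found in 6 of 30 members (20.0%), against 9.55% of all genes: Emp1, Gfap, Socs3, Sphk1, Steap4 and Tgm1. A match describes letters in a window and is not evidence of binding. Windows are shown for the pair of injury-type genes with the largest VIP response, Ptgs2 (chr1:150099781-150100080, plus strand) and Ptx3 (chr3:66219637-66219936, plus strand), and for Gfap (chr11:102897151-102897450, minus strand), the classic marker. Capitals mark TGACG, read on the opposite strand as CGTCA at bases 264 to 268, in Ptgs2, and TTCNNNGAA at bases 249 to 257 in Gfap. Ptx3 has neither motif in its window.
Ptgs2 promoter: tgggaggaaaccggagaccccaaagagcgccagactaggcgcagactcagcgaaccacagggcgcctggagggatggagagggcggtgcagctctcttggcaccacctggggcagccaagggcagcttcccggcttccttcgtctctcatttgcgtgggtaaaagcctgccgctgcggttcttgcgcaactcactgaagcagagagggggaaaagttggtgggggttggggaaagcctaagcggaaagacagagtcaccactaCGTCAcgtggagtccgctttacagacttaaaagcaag
Ptx3 promoter: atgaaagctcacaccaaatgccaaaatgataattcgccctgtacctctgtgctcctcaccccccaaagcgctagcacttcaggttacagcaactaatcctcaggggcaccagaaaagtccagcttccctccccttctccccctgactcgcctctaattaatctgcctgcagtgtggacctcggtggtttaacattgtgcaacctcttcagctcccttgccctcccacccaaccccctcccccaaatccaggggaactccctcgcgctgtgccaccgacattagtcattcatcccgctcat
Gfap promoter: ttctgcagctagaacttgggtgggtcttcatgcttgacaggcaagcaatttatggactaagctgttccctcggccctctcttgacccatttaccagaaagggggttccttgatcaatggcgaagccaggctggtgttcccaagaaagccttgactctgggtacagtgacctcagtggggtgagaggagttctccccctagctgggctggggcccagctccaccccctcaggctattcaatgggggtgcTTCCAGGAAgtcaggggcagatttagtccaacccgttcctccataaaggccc

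Sequencing depth was 16571398 to 20529238 counts per library. The 15 astrocyte markers summed to 7624 to 8646 CPM (counts scaled to library size) across the 12 libraries, with Gjb6 at 0.264 CPM or below in each. The cultures also held microglial RNA, and markers of other cell types were present. Those of fibroblasts and mural cells summed to 3315 to 5789 CPM, with Acta2 and Tagln at 1385 CPM or above in each library. Those of the oligodendrocyte lineage summed to 1162 to 1871 CPM. The 17 microglial markers, none of them at 0, summed to 2577, 3683 and 5143 CPM in ACREB VIP libraries 1 to 3 and to 2681, 3919 and 4880 CPM with ACREB and PBS. They summed to 1940, 2045 and 4223 CPM with control virus and VIP, and to 2051, 2766 and 3978 CPM with control virus and PBS. The ACREB library was above the control library in 6 of 6 same-numbered pairs. An exact two-sided permutation test of the sums, which ignores the pairs and could not pass because 3 against 3 libraries allow a smallest p of 0.1, gave p = 0.4 with VIP and p = 0.5 with PBS. All 17 microglial markers had a positive difference of ACREB from control virus averaged over treatments, with a median log2 of 0.42. The summed endothelial markers, at 32.3 to 64.5 CPM, were also higher with ACREB in 6 of 6 pairs. Sums of the other marker lists, astrocytes included, were higher in 2 to 4 of 6. In bulk RNA, fewer cells of a type and less RNA per cell cannot be told apart. Control PBS library 2 stood apart on the first principal component of all genes (38.1% of the variance), at 81.2, followed by ACREB PBS library 2 at 34.6, with the other 10 libraries at 7.02 or below. Control VIP library 1 and ACREB VIP library 1 were at the opposite end, at -29.0 and -28.9.

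The tested reactive genes ranged in level over more than 3 orders of magnitude, from the filament Vim to the enzyme Aspg. Per unit of exon length, Vim (vimentin) averaged 4655 TPM (counts scaled for exon length and library size) over the 12 libraries, more than 99.9% of tested genes. Gfap, the filament protein that defines astrocyte reactivity, averaged 1114 TPM, and Nes (nestin), a filament of progenitors and reactive astrocytes, averaged 1011 TPM. The S100 genes S100a6 and S100a10 averaged 582 and 546 TPM, and S1pr3, a receptor for sphingosine-1-phosphate, averaged 293 TPM. At the other end, 6 tested members averaged under 6 TPM. These were the prostaglandin synthase Ptgs2 at 5.42 TPM, the adhesion gene Amigo2 at 3.23 TPM, the iron-carrier lipocalin Lcn2 at 3.03 TPM, the sphingosine kinase Sphk1 at 2.83 TPM, the transglutaminase Tgm1 at 1.73 TPM and the asparaginase Aspg at 1.41 TPM. Gfap was thus among the most abundant genes of the cultures, while Lcn2, the other marker of reactivity, was listed at a low level in most libraries.

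**Figure D1:**
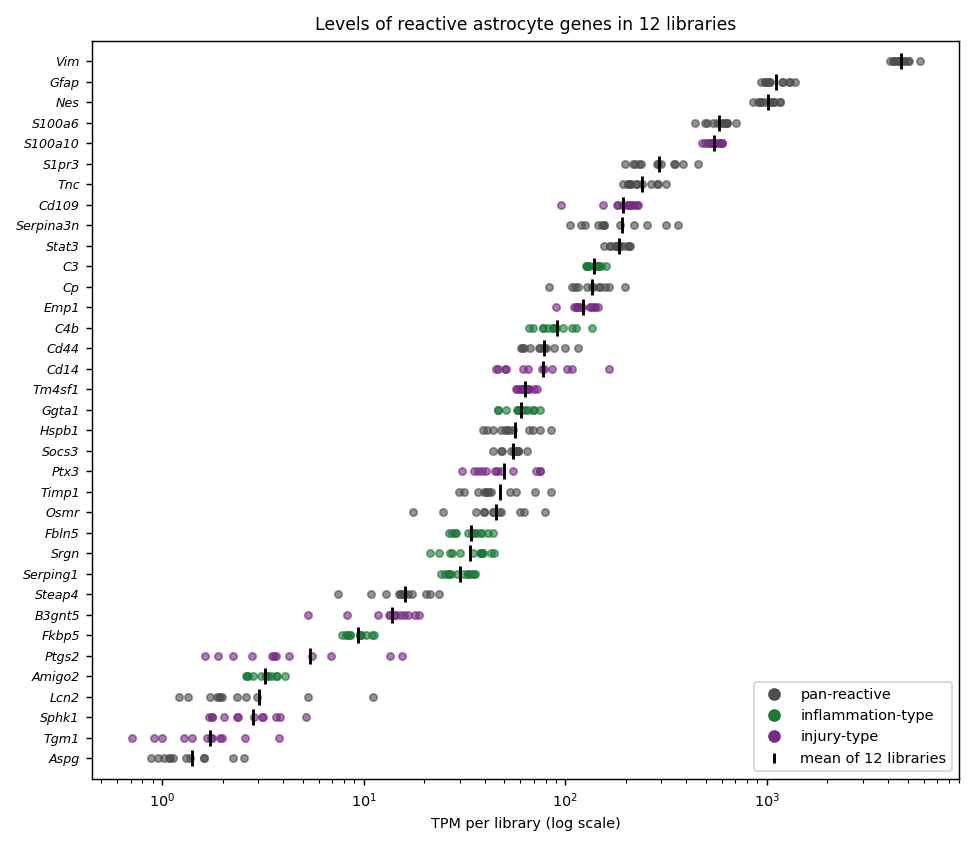
Level of each of the 35 tested members in TPM on a log scale, with 1 point per library (n = 12) and a black bar at the mean, coloured by class. Vim at 4655 TPM and Gfap at 1114 TPM lie at the top, and Lcn2, Sphk1, Tgm1 and Aspg lie at 3.03 TPM or below.

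Gfap differed little between groups. Gfap stood at 1439.8, 1201 and 1194 CPM in the ACREB VIP libraries and at 1348, 1201 and 1051 CPM in the ACREB PBS libraries. It stood at 1548, 1224 and 1206 CPM in the control VIP libraries and at 1492, 1565 and 1108 CPM in the control PBS libraries. The 4 groups overlapped. The log2 fold change with VIP was 0.09 with ACREB (95% interval -0.26 to 0.44) and -0.07 with control virus (-0.42 to 0.28). Over both treatments, ACREB libraries differed from control libraries by a log2 of -0.13 (SE 0.11).

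For Lcn2 a single library stood far above the rest. It stood at 0.842, 1.96 and 1.40 CPM in the ACREB VIP libraries and at 1.36, 2.24 and 0.937 CPM in the ACREB PBS libraries. The control VIP libraries held 1.64, 3.90 and 1.37 CPM, and the control PBS libraries 1.40, 8.97 and 1.22 CPM. In each group the library numbered 2 was the highest, and control PBS library 2 was the highest of all 12. The log2 difference of ACREB from control virus with PBS was -1.34 (SE 0.72) and did not pass the Benjamini-Hochberg-adjusted quasi-likelihood test of edgeR (adjusted p = 0.96), and without control PBS library 2 it was 0.20.

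The first comparison asked which reactive genes respond to VIP when CREB is not inhibited. With control virus, Ptgs2 and Ptx3, both of the injury type, and the pan-reactive Osmr were higher in every VIP library than in every PBS library. The pan-reactive Cd44 and S1pr3 were higher with VIP in all 3 pairs of same-numbered libraries. In all, 5 of 35 members were higher with VIP in all 3 such pairs and 2 were lower in all 3, against 11.5% and 15.0% of all genes. In the edgeR quasi-likelihood test, Benjamini-Hochberg-adjusted over all genes, 0 of 35 members passed at 0.05, against 0.489% of all genes (82 of 16761). At an unadjusted p under 0.05, 5 members were higher and 1 was lower, beside 6.42% of all genes in either direction. Because same-numbered libraries vary together, a model that adds the replicate number as a block was also run. In it 4 of 35 members rose, Cd44, Ptgs2, Ptx3 and S1pr3, and 0 fell, where 1.63% of all genes were called. DESeq2 called Ptgs2 and Ptx3 higher, with 1.43% of all genes called.

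Ptgs2 (ENSMUSG00000032487, chromosome 1, 150100031 to 150108227, GRCm38) encodes cyclooxygenase-2, which makes prostaglandins. It measured 18.8, 17.3 and 7.13 CPM with control virus and VIP, against 5.25, 3.16 and 2.34 CPM with control virus and PBS. The groups did not overlap, although control VIP library 3 was well below the other two. The fold change was 4.01 (log2 2.01, SE 0.42), with an adjusted p of 0.074 in the edgeR quasi-likelihood test, 0.0033 in the block fit and 0.00038 in DESeq2. Under all 20 alternative analyses the log2 fold change lay between 1.68 and 2.39.

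Ptx3 (ENSMUSG00000027832, chromosome 3, 66219910 to 66225805) encodes pentraxin 3, a secreted pattern-recognition protein. It measured 53.3, 53.6 and 56.4 CPM with control virus and VIP, against 32.6, 39.6 and 26.7 CPM with control virus and PBS. The VIP libraries lay close together and above all PBS libraries. The log2 fold change was 0.72 (SE 0.16), with an adjusted p of 0.098 in the edgeR quasi-likelihood test, 0.028 with the replicate block and 0.0020 in DESeq2.

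Cd44 (chromosome 2, 102811141 to 102901665) encodes the hyaluronan receptor. It measured 179, 220.5 and 142 CPM with control virus and VIP, against 144, 126 and 113 CPM with control virus and PBS. The groups overlapped only between VIP library 3 and PBS library 1, and each VIP library was above the PBS library of its own number. The log2 fold change was 0.50 (SE 0.17), which was 0.33 without control VIP library 2, with an adjusted p of 0.50 in the edgeR quasi-likelihood test and 0.038 with the replicate block.

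S1pr3 (chromosome 13, 51408639 to 51422797) measured 455, 358 and 569 CPM with control virus and VIP, against 278, 298 and 421 CPM with control virus and PBS. Library 3 was the highest in both groups, and again each VIP library was above its PBS counterpart. The log2 fold change was 0.47 (SE 0.21), which was 0.31 without control VIP library 3, with an adjusted p of 0.75 in the edgeR quasi-likelihood test and 0.030 with the replicate block. S1pr3 shares 45 exon bases with a long noncoding RNA on the opposite strand, so a small share of its counts is uncertain.

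Osmr, the receptor subunit that pairs with gp130 for oncostatin M, averaged 207 ± 46.4 CPM with control virus and VIP and 121 ± 48.4 CPM with control virus and PBS (SD, n = 3 each), and the groups did not overlap. Its log2 fold change of 0.77 (SE 0.31), which was 0.47 without control PBS library 2, passed neither the edgeR quasi-likelihood test (adjusted p = 0.66) nor the block fit (0.11). Osmr, Ptgs2 and Ptx3 were the 3 members with non-overlapping libraries, all of them higher with VIP, where 4.53% of all genes were. The member with the lowest unadjusted p among those lower with VIP was Ggta1, a galactosyltransferase, at 66.3 ± 8.77 CPM with VIP and 80.6 ± 7.08 CPM with PBS (log2 -0.28, SE 0.13, adjusted p = 0.75 in the edgeR quasi-likelihood test).

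The other members had small fold changes with control virus. Of the 35, 30 lay within 0.5 of no change on the log2 scale, 19 were above it and 16 below it, and their median log2 fold change was 0.01, against -0.02 over all genes. The median's sign depended on single libraries, with control PBS library 1, 2 or 3 left out in turn giving -0.09, 0.18 and -0.07. By class the medians were -0.03 for the 17 pan-reactive genes, 0.02 for the 8 inflammation-type genes and 0.04 for the 10 injury-type genes tested. Stat3 itself and its inhibitor Socs3 had log2 fold changes of 0.10 (SE 0.13) and 0.22 (SE 0.14), and edgeR called neither in its quasi-likelihood test (adjusted p = 0.80 and 0.78). Under offsets for GC content and length the same test called Socs3 higher, where 131 of all genes were higher and 20 lower. The acute-phase protease inhibitor Serpina3n, at -0.03 (SE 0.37), and the complement factors C3 and C4b, at 0.01 and 0.03, were close to 0.

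**Figure D2:**
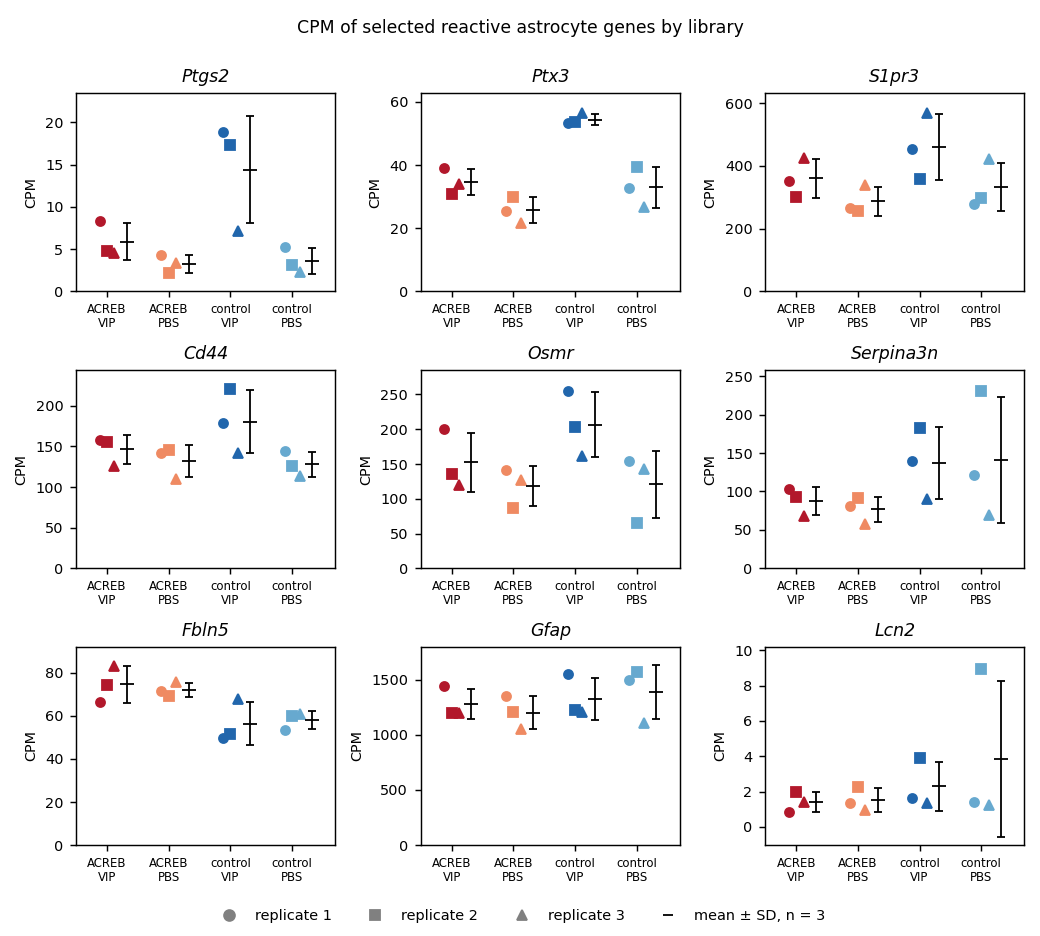
CPM of 9 members in every library, grouped from left to right as ACREB VIP, ACREB PBS, control VIP and control PBS, with symbols for replicate numbers and a bar for the mean ± SD (n = 3). Ptgs2 reaches 18.8 and 17.3 CPM only in control VIP libraries 1 and 2, while Gfap overlaps in all groups and Lcn2 is highest in control PBS library 2.

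The second comparison asked what was left of the VIP response when CREB was inhibited. With ACREB virus, Ptgs2 measured 8.37, 4.80 and 4.55 CPM with VIP, against 4.31, 2.18 and 3.40 CPM with PBS. Ptx3 measured 39.0, 30.9 and 33.9 CPM with VIP, against 25.5, 30.1 and 21.8 CPM with PBS. In both genes the VIP libraries lay above the PBS libraries without overlap, by a narrow margin, and these were 2 of 35 members against 3.45% of all genes. The log2 fold changes were 0.84 (SE 0.42) for Ptgs2 and 0.43 (SE 0.16) for Ptx3, and neither passed the Benjamini-Hochberg-adjusted quasi-likelihood test of edgeR (adjusted p = 1 for each).

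The other members that had risen under the replicate block with control virus had smaller fold changes here. They were named for that rise, and this choice favours smaller values here. S1pr3 measured 353, 302 and 426 CPM with VIP and 266, 256 and 340.2 CPM with PBS (log2 0.33, SE 0.21). Cd44 measured 157, 156 and 126 CPM with VIP and 142, 145 and 109.9 CPM with PBS (log2 0.14, SE 0.17). Each was higher with VIP in all 3 same-numbered pairs, but the groups overlapped. In all, 0 of 35 members passed the edgeR quasi-likelihood test, as against 0.0119% of all genes (2 of 16761), and 0 passed with the replicate block (0.0776% of all genes) or DESeq2 (0.134%), while 1 member, Ptx3, had an unadjusted p under 0.05, as did 1.92% of all genes. The median log2 fold change was 0.09 over the 35 members and 0.00 over all genes, and 34 of 35 lay within 0.5 of no change. In this comparison 14 of 35 members were higher with VIP in all 3 same-numbered pairs, and 3 were lower in all 3, against 12.2% and 13.1% of all genes.

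Whether VIP acted differently with and without ACREB was tested directly as an interaction, the VIP response with ACREB minus that with control virus. For Ptgs2 this was -1.17 on the log2 scale (SE 0.59, 95% interval -2.45 to 0.11, unadjusted p = 0.070 from edgeR's model). For Cd44 it was -0.35 (SE 0.24), for Ptx3 -0.30 (SE 0.23), for Osmr -0.41 (SE 0.44) and for S1pr3 -0.14 (SE 0.29). All 5 were below 0. They were named for their rise with VIP under control virus, which the interaction subtracts, so this choice favours values below 0. Over the 35 members the interaction was positive for 24 and negative for 11, with a median log2 of 0.05, against 0.01 over all genes. Single libraries moved the values of the 5 genes. Without control PBS library 2 that of Osmr was -0.11, without control VIP library 2 that of Cd44 was -0.19, without control PBS library 3 that of Ptx3 was -0.16, and without control VIP library 3 that of S1pr3 was 0.03. In the interaction test 0 of 35 members passed the edgeR quasi-likelihood test, with an adjusted p of 1 for each, 0 passed with DESeq2 or the replicate block, and 0 had an unadjusted p under 0.05. Of all 16761 genes 0% passed each of these 3 adjusted tests, and 1.20% had an unadjusted p under 0.05. The responses of these genes in the 2 viruses are therefore not shown to differ.

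**Figure D3:**
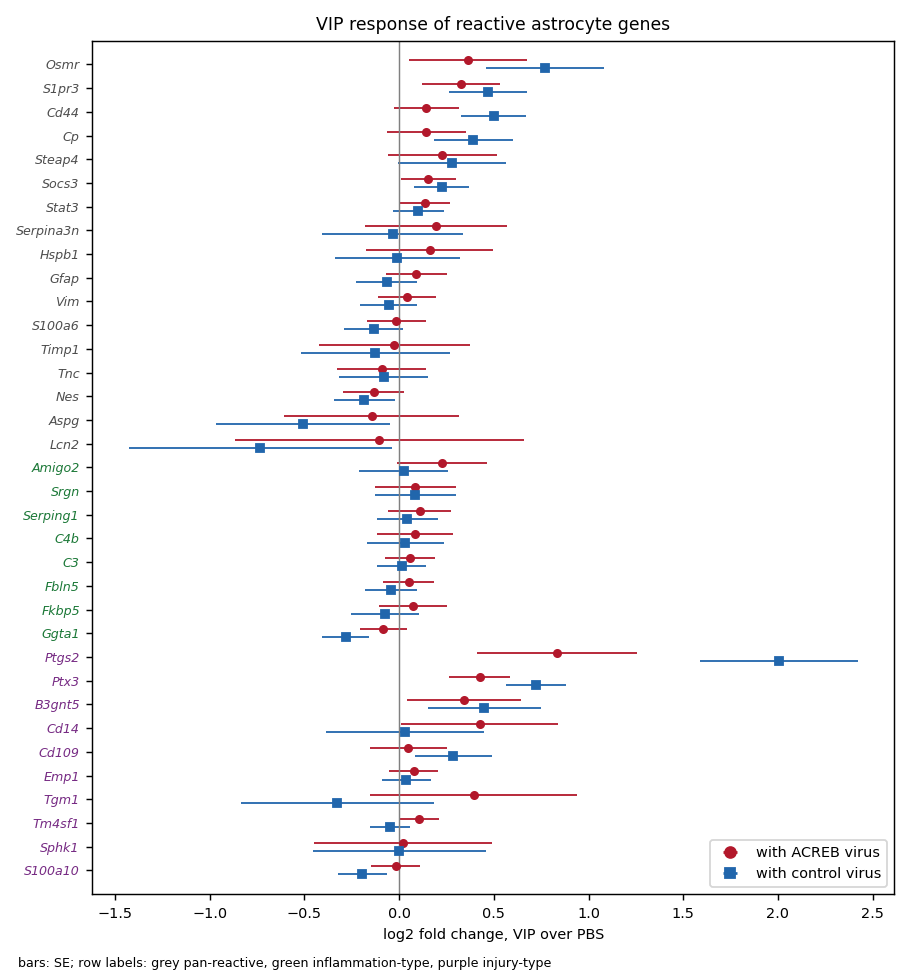
Log2 fold change of VIP over PBS for each tested member, with ACREB virus (red circles) and control virus (blue squares), with bars for the SE, grouped by class. Ptgs2 lies at 0.84 with ACREB and stands out at 2.01 with control virus, while 34 of 35 members with ACREB and 30 of 35 with control virus lie within 0.5 of 0.

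Averaged over both viruses, 1 of 35 members passed the Benjamini-Hochberg-adjusted quasi-likelihood test of edgeR, where 0.728% of all genes did. Ptx3 rose with VIP by a log2 of 0.57 (SE 0.11, adjusted p = 0.042), a fold change of 1.49, and it was higher with VIP in 6 of 6 same-numbered pairs. The call was lost when any 1 of 10 libraries was left out, that is, any but control PBS library 2 and ACREB PBS library 2, with an adjusted p of at most 0.14. Ptgs2 had the larger mean change, a log2 of 1.42 (SE 0.30), with an adjusted p of 0.057 in the same test. In the block fit 4 members rose, Ptgs2 (adjusted p = 0.0033), S1pr3 (0.010), Ptx3 (0.013) and Cd44 (0.045), where 2.25% of all genes were called. DESeq2 called Ptgs2 and Ptx3 higher, beside 1.67% of all genes. At an unadjusted p under 0.05, 5 members were higher and 0 lower, where 6.67% of all genes were past it in either direction. Like Ptx3, Ptgs2, S1pr3 and Cd44 were higher with VIP in 6 of 6 same-numbered pairs, and Nes and Ggta1 were lower in 6 of 6. The share of all genes with 6 of 6 pairs was not computed. Of the 10 tested injury-type genes 9 had a positive mean response, 6 to 9 when a library was left out, with a median log2 of 0.11, and the 35 members together had a median of 0.06 against -0.01 over all genes.

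The third comparison asked whether ACREB changes the reactive genes in the absence of VIP. With PBS, Fbln5, the matrix protein fibulin-5, was the only member whose ACREB and control libraries did not overlap. Its ACREB libraries lay wholly above the control libraries, as did those of 4.34% of all genes. Fbln5 stood at 71.4, 69.3 and 75.6 CPM in the ACREB PBS libraries, against 53.4, 60.0 and 61.0 CPM with control virus and PBS. The log2 difference was 0.31 (SE 0.14, adjusted p = 0.90 in the edgeR quasi-likelihood test). Serpina3n (chromosome 12, 104406729 to 104414329), a protease inhibitor of the acute-phase response, measured 80.7, 90.9 and 58.0 CPM with ACREB and PBS, against 122, 230.3 and 69.7 CPM with control virus and PBS. Control PBS library 2 was far above the rest, and the groups overlapped. The log2 difference was -0.88 (SE 0.38, adjusted p = 0.89 in the same test) and was -0.32 without control PBS library 2. Its counts are uncertain where reads match other genes of the Serpina3 family.

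With PBS, 0 of 35 members passed the edgeR quasi-likelihood test for ACREB, against 0.0358% of all genes, and 0 passed with the replicate block (0.221% of all genes) or DESeq2 (0.514%). At an unadjusted p under 0.05, where 5.30% of all genes lay, Fbln5 was higher, and Ptx3 and Serpina3n were lower. The median log2 difference was -0.11 over the 35 members and 0.01 over all genes. Without control PBS library 2 the members' median was 0.04. In the same-numbered pairs, 6 of 35 members were higher with ACREB in all 3 and 12 were lower in all 3, against 20.7% and 20.1% of all genes.

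The fourth comparison set ACREB against control virus among cells given VIP. Ptx3 measured 39.0, 30.9 and 33.9 CPM with ACREB and VIP, against 53.3, 53.6 and 56.4 CPM with control virus and VIP. The groups did not overlap, and all ACREB libraries lay well below the control libraries. The log2 difference was -0.65 (SE 0.16, adjusted p = 0.28 in the edgeR quasi-likelihood test, 0.086 with the replicate block and 0.021 in DESeq2). Ptgs2 measured 8.37, 4.80 and 4.55 CPM with ACREB and VIP, against 18.8, 17.3 and 7.13 CPM with control virus and VIP. ACREB VIP library 1 was above control VIP library 3, so the groups overlapped, and the log2 difference was -1.29 (SE 0.40, adjusted p = 0.51). Fbln5 measured 66.4, 74.3 and 83.4 CPM with ACREB and VIP, against 49.9, 51.4 and 68.0 CPM with control virus and VIP (log2 0.40, SE 0.14).

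With VIP, 0 of 35 members passed the edgeR quasi-likelihood test for ACREB, against 0.0537% of all genes, and 0 passed with the replicate block (0.364% of all genes), while DESeq2 called Ptx3 lower (0.690% of all genes). At an unadjusted p under 0.05, where 5.69% of all genes lay, Fbln5 and Ggta1 were higher, and Ptgs2 and Ptx3 were lower. The libraries of 6 members did not overlap, where 14.0% of all genes did not. S100a6, the proteoglycan Srgn and the tetraspanin-like Tm4sf1 were higher with ACREB, and Ptx3, the complement inhibitor Serping1 and Stat3 were lower. Apart from Ptx3, their fold changes lay between 0.846 and 1.35. Srgn averaged 24.2 ± 2.28 CPM with ACREB and 18.0 ± 3.06 CPM with control virus, and Stat3 averaged 479 ± 29.6 CPM with ACREB and 533 ± 21.1 CPM with control virus (SD, n = 3 each). In the same-numbered pairs, 16 of 35 members were lower with ACREB in all 3 and 8 were higher in all 3, against 21.6% and 22.2% of all genes.

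Averaged over both treatments, 0 of 35 members passed the edgeR quasi-likelihood test for ACREB, against 0.674% of all genes, and 6 had an unadjusted p under 0.05, as did 9.47% of all genes. The fit with the replicate block called 4 members, where it called 3.45% of all genes. Fbln5 rose by a log2 of 0.36 (SE 0.10; adjusted p = 0.14 in the edgeR quasi-likelihood test and 0.020 with the replicate block). Ptx3 fell, at a log2 of -0.50 (SE 0.11; 0.074 and 0.025 in these tests), and so did Serpina3n, at -0.76 (SE 0.26; 0.31 and 0.026), and S1pr3, at -0.28 (SE 0.15; 0.61 and 0.047). Without control PBS library 2 the difference was -0.48 for Serpina3n, and without library 3 of the control PBS or control VIP group it was -0.18 or -0.19 for S1pr3. The microglial markers moved with the virus in the same fit: 13 of 17 rose with the replicate block and 0 fell, while 0 passed without it, in DESeq2 or at an unadjusted p under 0.05 in edgeR. Their part in these members' differences was not tested. DESeq2 called Fbln5 higher (adjusted p = 0.029) and Ptx3 lower (0.0030), and it called 2.57% of all genes.

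The pan-reactive genes lay mostly on the lower side with ACREB. Of 17, 15 had a negative mean difference, with a median log2 of -0.14, and 12, with a median of -0.09, without control PBS library 2, while 8 inflammation-type genes split 4 to 4 and 10 injury-type genes 5 to 5. Over all genes 51.1% were positive. The exceptions among the pan-reactive genes were S100a6, at 0.23, and Aspg, at 0.02. Most of these differences were small: Vim averaged 5726 ± 434 CPM with ACREB and VIP and 6479 ± 421 CPM with control virus and VIP (SD, n = 3 each). Over the 35 members the median was -0.12, or -0.01 without control PBS library 2, against 0.00 over all genes, and no test of the list as a whole was made.

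**Figure D4:**
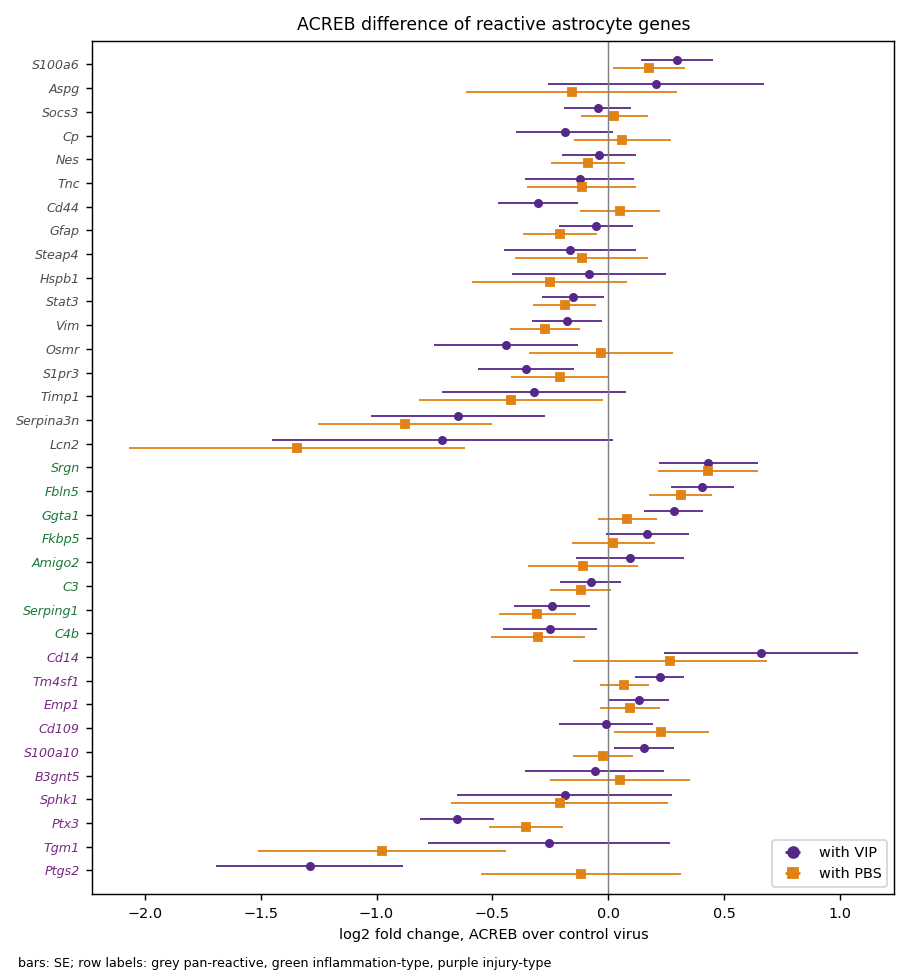
Log2 fold change of ACREB over control virus for each tested member, among cells with VIP (purple circles) and with PBS (orange squares), with bars for the SE, grouped by class. Fbln5 and Srgn lie to the right of 0 in both, Ptx3 and Serpina3n to the left in both, and Ptgs2 lies at -1.29 with VIP and -0.12 with PBS.

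Cd14 and Srgn are also expressed by microglia. Cd14, the co-receptor for lipopolysaccharide, averaged 49.9 ± 26.3 CPM with ACREB and VIP, 37.2 ± 13.3 CPM with ACREB and PBS, 31.7 ± 15.7 CPM with control virus and VIP, and 31.0 ± 8.08 CPM with control virus and PBS (SD, n = 3 each). In every group library 3 was the highest for Cd14, and library 3 was also the highest for the summed microglial markers. Srgn was highest in library 3 in both control groups only. With ACREB it was highest in library 2, at 26.8 CPM with VIP and 28.1 CPM with PBS, against 23.3 and 22.6 CPM in library 3. Averaged over treatments, the log2 difference with ACREB was 0.46 (SE 0.30) for Cd14 and 0.43 (SE 0.15) for Srgn, and edgeR called neither in its quasi-likelihood test (adjusted p = 0.72 and 0.32). The 17 microglial markers had a median log2 difference of 0.42 in the same comparison, 0.46 with VIP and 0.36 with PBS, close in size to those of Cd14 and Srgn. The part of microglial RNA in these values was not tested.

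The replicate number accounted for more of the spread of the reactive genes than virus or treatment did. In a partition of the variance of log2 CPM over the 12 libraries, the median share of the number was 42.7% over the 35 members and 34.1% over all genes. The median share of the virus was 11.6% over the members and 5.72% over all genes, and that of treatment was 3.91% and 6.24%. The remaining spread had a median share of 19.7% over the members and 33.9% over all genes. The number has more levels than virus or treatment, so it would hold a larger share even without an effect. The number held the largest share in 21 of 35 members (60%), against 43.4% of all genes. It held 89.1% for Tnc, the matrix protein tenascin-C, 79.6% for the small heat-shock protein Hspb1 and 78.7% for the metalloproteinase inhibitor Timp1. Ptx3 and Ptgs2 differed from these, with treatment at 47.0% and 50.8% and the number at 4.09% and 16.2%, and for Fbln5 the virus held 65.0%.

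Control PBS library 2 had the highest value of the 12 libraries for 16 of 35 members, where it was highest for 31.6% of all genes, and the lowest for 6, where it was lowest for 29.8%. Compared with the other control PBS libraries, it was above both for 21 members, below both for 7 and between them for 7. The 21 members above had a median exon length of 3163 bases and a median GC content of 52.5%. The 7 below, Steap4, Osmr, Cp, Ggta1, Cd109, Emp1 and B3gnt5, had medians of 5935 bases and 44.8%. GC content and length together accounted for 42.8% of the departure of this library from the mean of all 12 libraries over all genes. The share was 18.6% for ACREB PBS library 2, 15.8% for ACREB VIP library 1 and 14.3% for control VIP library 1. Without both PBS libraries numbered 2, an analysis chosen after seeing the data, the edgeR quasi-likelihood test called the VIP response with control virus for 1 member, Ptx3. Steap4, a metalloreductase, and Cp, the copper carrier ceruloplasmin, are iron and copper handling genes, Cd109 encodes a TGF-β co-receptor, Emp1 a membrane protein and B3gnt5 a glycosyltransferase, and none of them passed a test in the main analysis or the fit with the block.

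**Figure D5:**
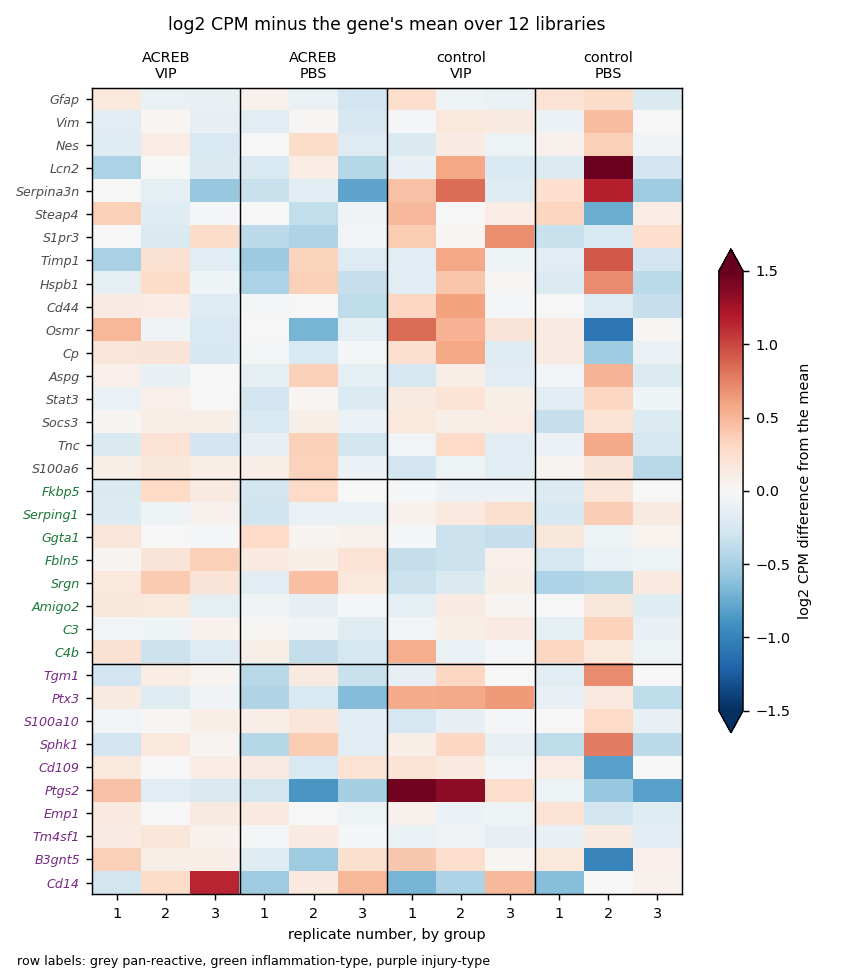
Log2 CPM of each tested member minus its mean over the 12 libraries, with libraries in columns by group and replicate number and members in rows by class; the colour scale ends at 1.5. Control PBS library 2 is the most extreme column, high for Lcn2 and Serpina3n and low for Osmr and B3gnt5, and Ptgs2 is high in control VIP libraries 1 and 2.

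Several further members were also without a call in the main analysis. Fkbp5, a glucocorticoid-induced chaperone, averaged 23.1 to 26.0 CPM over the 4 groups. Tnc averaged 481 to 555 CPM, Emp1 191 to 215 CPM and Cd109 317 to 387 CPM. Sphk1 averaged 3.50 to 4.05 CPM, Tgm1 1.06 to 2.09 CPM and Amigo2 2.60 to 3.04 CPM, and at such levels only large changes could be detected. Amigo2 overlaps the more abundant Pced1b on the opposite strand by 58 exon bases, so its counts are uncertain, as are those of C4b, which has the near-identical copy C4a. Cp, Stat3, Tgm1, Tnc and Sphk1 share 72 to 192 exon bases with opposite-strand genes that have fewer counts than they do. Clcf1 shares 311 exon bases with another gene on the same strand, so its count is uncertain.

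The pathway around the members was read from 2 lists. Of 32 genes of the STAT3 and gp130 pathway, 30 were tested, and of 36 further genes linked to reactive astrocytes, 33 were tested. In the Benjamini-Hochberg-adjusted quasi-likelihood test of edgeR, 0 of the 30 and 0 of the 33 passed in any of the 7 contrasts. For VIP over both viruses, an unadjusted p under 0.05 was reached by 2 higher and 2 lower pathway genes and by 4 higher and 0 lower further genes, where 6.67% of all genes lay. DESeq2 called 1 pathway gene higher and 1 lower, and 3 further genes higher and 0 lower, beside 1.67% of all genes. For ACREB over both treatments it was reached by 1 higher and 1 lower pathway gene and by 1 higher and 2 lower further genes, where 9.47% of all genes lay, and DESeq2 called 0 pathway genes and 1 higher and 1 lower further gene, beside 2.57% of all genes. The block model called 2.25% of all genes for VIP and 3.45% for ACREB. With the replicate block, averaged over both viruses, Il11, a cytokine that signals through gp130, rose with VIP by a log2 of 1.85 (adjusted p = 0.037), and Bcl2l1, an anti-apoptotic STAT3 target, fell by 0.43 (0.015). Il11 was at a low level, at 0.98 CPM or below in each PBS library and 3.63 CPM or below in each VIP library. In the same fit the peptide Edn1 (endothelin 1) rose by 0.70 (0.015), the growth factor Fgf2 by 0.81 (0.036) and the splicing regulator Ptbp1 by 0.37 (0.046), and the stress enzyme Hmox1 fell by 0.38 (0.031). Hmox1 was highest in control PBS library 2, at 313 CPM. Its unadjusted p was 0.12 in edgeR without the block. DESeq2 called the other genes named here for VIP but not Hmox1 (adjusted p = 0.94). With ACREB, averaged over both treatments, the filament protein gene Synm rose by 0.41 (0.038), and the proteoglycan gene Ncan fell by 0.32 (0.047). Ncan was highest in control PBS library 2, at 1993 CPM. Its unadjusted p was 0.17 in edgeR without the block. DESeq2 called Synm but not Ncan (adjusted p = 0.74). Fold changes here are those of the fit without the block. The median log2 fold change with VIP over both viruses was 0.00 for the 30 pathway genes and -0.02 for the 33 further genes, near that of all genes.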

How the data were processed

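PolyA RNA was sequenced from strand-specific libraries, and the authors deposited unscaled read counts by Ensembl gene with no normalization, 1 column for each of the 12 libraries, each matched to its label by name. The tools, per the submitters' processing notes, included edgeR without a version, R 3.6.1, HTSeq 0.11.2, STAR 2.7.1a and Trimmomatic 0.39, and the build was GRCm38 (mm10). The annotation release and strand setting were not given in the sources used here, so genes that overlap on opposite strands are marked as uncertain. There were 0 columns of other samples.

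The analysis here used DESeq2 1.42.0, limma 3.58.1 and edgeR 4.0.16 under R 4.3.3. A low-count filter (filterByExpr) left 16761 genes. After TMM scaling, the edgeR quasi-likelihood model took 1 mean for each group over the 12 libraries together, which leaves 8 residual degrees of freedom (prior 3.99). P-values were adjusted over these genes and called below 0.05. CPM uses TMM-adjusted library sizes, log2 CPM a pseudocount of 2, and TPM the exon length of GENCODE M21. The SE was derived as the size of the log2 fold change over the square root of the F value, and edgeR does not report it itself. Deviations from the group means were positively correlated between same-numbered libraries in 18 of 18 pairs (across genes, 0.132 to 0.679), so the number also entered a second model as a block. Alternatives were DESeq2, RLE scaling, no filter, GC and length offsets, the block, the libraries of a comparison alone, and each library left out. The scripts were tested on simulated data.

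The members and lists were chosen with earlier results of these data known. Values per library are given for Gfap, Lcn2, members past the threshold in the main or block model, and the 3 members with the smallest p in each contrast. Other members shown per library in a figure were chosen after their values were seen. Genes outside the members are named from the 2 lists where they passed with the block, except 1 gene that is not reported here.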

Additional observations from a re-analysis of the deposited data

How the results depend on the processing

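The number of members called was recomputed under each alternative. For VIP with control virus, 0 in the main analysis became 4 with the replicate block, 2 with DESeq2, 2 without a filter on low counts, 2 with GC and length offsets, 6 with these offsets and the block, and 1 without both PBS libraries numbered 2, the alternative chosen after seeing the data. Of all genes, 71 were higher and 11 lower in the main analysis, 115 and 16 without a filter, and 131 and 20 with the offsets. These counts were 358 and 214 with offsets and block, and 96 and 17 without both PBS libraries numbered 2. The members called with the offsets were Ptx3 and Socs3, both higher. Offsets and block called Osmr, Ptgs2, Ptx3, S1pr3 and Socs3 higher and Ggta1 lower. Leaving out 1 library gave 0 to 1 members. Ptx3 was called without control PBS library 2 (80 genes higher and 11 lower), and Ptgs2 without control VIP library 3 (45 and 6). For VIP over both viruses, 1 became 4 with the block, 2 with DESeq2, 2 without a filter, 3 with the offsets and 6 with offsets and block. Of all genes, 97 were higher and 25 lower in the main analysis, and 142 and 27 without a filter. With the offsets these counts were 184 and 46, and with offsets and block 416 and 295. The offsets called Ptgs2, Ptx3 and Socs3 higher, and offsets and block called the same 6 members as with control virus. Leaving out 1 library gave 0 to 1 members, with 0 when any ACREB VIP library, library 1 or 3 of either PBS group, or control VIP library 1 or 2 was missing, and Ptgs2 in place of Ptx3 without control VIP library 3. For ACREB with PBS, 0 became 1 with offsets and block, and for ACREB with VIP, 0 became 1 with DESeq2, 5 with offsets and block and 1 without both PBS libraries numbered 2. For ACREB over both treatments, 0 became 4 with the block, 2 with DESeq2, 1 without a filter, 1 with the offsets, 11 with offsets and block and 1 without both PBS libraries numbered 2, and leaving out 1 library gave 0. Of all genes, offsets and block called 107 higher and 201 lower for ACREB with PBS, from 1 and 5 in the main analysis. For ACREB with VIP they called 215 and 371, from 3 and 6. For ACREB over both treatments they called 689 and 953, from 40 and 73. The members among these were Cd14 and Fbln5, higher, and C4b, Osmr, Ptgs2, Ptx3, S1pr3, Serpina3n, Serping1, Stat3 and Timp1, lower. In the same setting Serpina3n was lower with PBS. Among cells with VIP, Cd14 was higher, and Ptgs2, Ptx3, S1pr3 and Serpina3n were lower. Over both treatments, 47 and 85 were called without a filter, and 98 and 246 with the offsets. The cause of these differences was not tested. For VIP with ACREB and for the interaction the count was 0 in every alternative run. Of the members' single values under alternatives, 4725 stayed on the same side of the threshold, 60 passed it newly, 10 no longer passed it, and no called value changed direction. Medians over the members were small enough to change sign with 1 library: that of the interaction, 0.05, was -0.08 without control PBS library 2. The block changed no call other than those given.

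With 3 libraries per group, small changes in members under 5 CPM could not be detected, and p-values cover the spread between these libraries only.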
